A study of Mus musculus with 7 samples.

Results

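The BCL-2 family decides at the mitochondrion whether a cell lives or dies, and 10 of its genes were followed here across 3 populations of mouse CD8 dendritic cells. The 10 were taken by name, with each Entrez identifier in the count files matched to its mouse symbol. They split by textbook role into 5 pro-survival genes (Bcl2, Bcl2l1, Mcl1, Bcl2a1b and Bcl2a1d) and 5 pro-death genes (Bcl2l11, Bid, Bbc3, Bax and Bak1). All 10 were found among the 27179 genes listed, and all 10 passed the filter on low counts with 10863 genes in all. The study sorted CD8 dendritic cells of C57BL/6 mice by flow cytometry and sequenced their RNA in 7 libraries. The first population was CD103 high cells labelled as CpG treated (n = 2), called CpG CD103 high here. The second was CD103 low cells labelled as untreated (n = 2), and the third was CD103 negative cells labelled as untreated (n = 3). CpG names DNA motifs that engage Toll-like receptor 9. Since every CpG-treated library was also CD103 high, treatment and CD103 level cannot be told apart. The labels and design text used here name no tissue, dose, duration, age or sex, nor whether animals were pooled.

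Pro-survival proteins of the family (BCL-2, BCL-XL, MCL-1 and A1) hold the pore-forming effectors BAX and BAK in check at the outer mitochondrial membrane. The BH3-only proteins, among them BIM (Bcl2l11), BID and PUMA (Bbc3), block the pro-survival proteins or engage the effectors directly, after which cytochrome c is released and caspases are activated. Dendritic cells are short-lived after activation, and BIM and BCL-2 are known to set their lifespan in mice. A1 is encoded in the mouse by several near-identical genes on chromosome 9 and is known as a target of NF-kB. MCL-1 is short-lived as a protein, so its transcript need not follow its amount.

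Total counts per library ran from 4474211 to 4629181, and between 13477 and 13978 genes had a count. The labels date both CpG CD103 high libraries and CD103 negative replicates 1 and 2 to 2012, and both CD103 low libraries and CD103 negative replicate 3 to 2013. No label says which step those dates refer to. Levels are in counts per 1000000 counts (CPM) of a library size scaled by trimmed mean of M-values. Differences are log2 fold changes with their standard error (SE) from 1 edgeR quasi-likelihood fit with group and date as terms, and a gene counts as called where the p-value, adjusted by the Benjamini-Hochberg method over all 10863 genes, was under 0.05. Because of the date term, the CpG CD103 high libraries were compared in essence with CD103 negative replicates 1 and 2, and the CD103 low libraries with CD103 negative replicate 3 alone. Itgae, which encodes CD103, had 1019 and 992 CPM in CpG CD103 high libraries, 346 and 375 CPM in CD103 low libraries, and 61.7, 62.7 and 54.3 CPM in CD103 negative libraries. The 11 markers of type 1 conventional dendritic cells, Xcr1, Clec9a and Cd8a among them, include Itgae, the sorted marker. Their summed level was 17745 and 17758 CPM in CpG CD103 high libraries, 13678 and 13977 CPM in CD103 low libraries, and 12053 to 13033 CPM in CD103 negative libraries. B cell markers summed to between 475 and 531 CPM in every library, of which Ighm made up 426 to 495 CPM, and T cell markers summed to at most 3.41 CPM except in CD103 low replicate 2, where they reached 36.6 CPM.

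Per length, Mcl1, the A1 genes and Bak1 were the most abundant of the 10 in all 3 populations, and Bcl2 was the least abundant. In CpG CD103 high libraries Mcl1 led with 118 ± 6.14 CPM per 1000 bases of gene length (SD, n = 2), ahead of Bak1 at 104 ± 3.43, Bcl2a1d at 97.1 ± 0.691 and Bcl2a1b at 82.9 ± 8.07. In CD103 low libraries Bcl2a1b led with 158 ± 0.748 CPM per 1000 bases, ahead of Bcl2a1d at 147 ± 5.21, Mcl1 at 130 ± 3.50 and Bak1 at 99.1 ± 3.57 (SD, n = 2). In CD103 negative libraries the order was Bcl2a1d at 143 ± 27.7, Bcl2a1b at 136 ± 28.6, Mcl1 at 111 ± 18.4 and Bak1 at 96.6 ± 2.56 CPM per 1000 bases (SD, n = 3). Across the CD103 negative libraries each of these 4 overlapped the next in the order, but both A1 genes, at 114 to 169 and 116 to 169 CPM per 1000 bases, lay above Bak1 at 93.8 to 98.8, and within each library both A1 genes were above Mcl1 and Bak1. The leading 4 of CpG CD103 high and of CD103 low libraries did not overlap. Bax, Bid and Bcl2l11 came next. Bcl2l1 and Bbc3 followed at 5.69 ± 0.691 and 7.51 ± 2.37 CPM per 1000 bases in CpG CD103 high cells, at 6.07 ± 0.219 and 7.63 ± 0.230 in CD103 low libraries, and at 6.04 ± 0.360 and 4.50 ± 1.61 in CD103 negative libraries. Bcl2 came last, with 0.747 ± 0.280 CPM per 1000 bases in CpG CD103 high, 1.11 ± 0.0529 in CD103 low and 1.79 ± 0.237 in CD103 negative libraries.

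**Figure D1:**
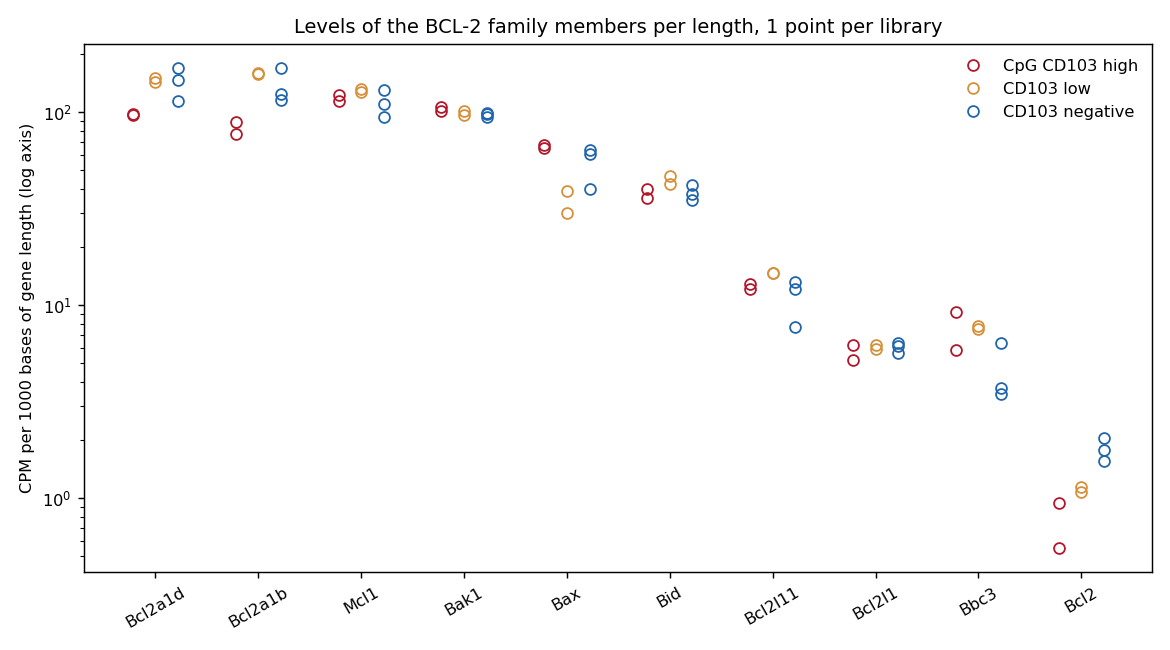
Levels of the 10 BCL-2 family genes per length, in CPM per 1000 bases of the gene length listed in the files (log axis), with 1 circle per library in CpG CD103 high, CD103 low and CD103 negative populations. Bcl2 sits lowest in all 3 populations, at means of 0.747, 1.11 and 1.79, and the A1 genes of CpG CD103 high libraries lie below those of both other populations.

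CpG CD103 high cells held less RNA of 3 pro-survival genes, Bcl2, Bcl2a1b and Bcl2a1d, and more of 1 pro-death gene, Bbc3, than CD103 negative cells. The other 6 genes did not pass the test. Among them were Mcl1 and Bak1, the most abundant in CPM of the 5 pro-survival and the 5 pro-death genes listed. Thus 4 of 10 genes were called, where 26.3% of all 10863 genes were called in this comparison. Of the 5 pro-survival genes 3 fell and none rose, against 11.8% of all genes called lower, and of the 5 pro-death genes 1 rose and none fell, against 14.5% of all genes called higher. The median log2 fold change was -0.70 over the pro-survival genes, the value of Bcl2a1d, and 0.11 over the pro-death genes, beside -0.00698 over all genes tested. Bcl2a1b and Bcl2a1d were 99.1% identical over their transcripts, so their calls are not independent. The counts of 3 and 4 called genes thus hold the A1 signal more than once. In bulk RNA, fewer cells of a type and less RNA per cell cannot be told apart.

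Bcl2 (Entrez 12043; chr1:106538176-106714290, GRCm38), the founding pro-survival gene, had 7.32 and 4.26 CPM in CpG CD103 high libraries, 8.86 and 8.28 CPM in CD103 low libraries, and 12.1, 13.8 and 15.8 CPM in CD103 negative libraries. The 3 populations did not overlap, with CD103 low between the other two. Bcl2 fell by 1.16 on the log2 scale in CpG CD103 high relative to CD103 negative cells (SE 0.27, adjusted p = 0.0112), which is 2.23-fold lower. These levels rest on 33 and 19 counts in CpG CD103 high libraries, 39 and 36 in CD103 low libraries, and 55, 64 and 74 in CD103 negative libraries. The call was lost when CpG CD103 high replicate 2 was left out (log2 fold change -0.83, adjusted p = 0.0664), when CD103 negative replicate 2 was left out (-1.06, adjusted p = 0.0622) and in DESeq2 (-1.17, adjusted p = 0.0736). Bcl2 exons share 558 bases with D630008O14Rik on the opposite strand, and reads of both cannot be told apart because no strand setting is stated in the labels or files.

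The A1 genes encode a small pro-survival protein. Bcl2a1b (Entrez 12045; chr9:89199273-89207838, GRCm38) had 67.7 and 58.9 CPM in CpG CD103 high libraries, 120 and 121 CPM in CD103 low libraries, and 129, 94.4 and 88.3 CPM in CD103 negative libraries. Bcl2a1d (Entrez 12047; chr9:88723288-88731850, GRCm38) had 77.6 and 76.9 CPM in CpG CD103 high libraries, 120 and 114 CPM in CD103 low libraries, and 135, 116 and 90.7 CPM in CD103 negative libraries. For both genes the CpG CD103 high libraries lay below every other library, and the CD103 low libraries lay within the range of the CD103 negative ones. Relative to CD103 negative cells, Bcl2a1b fell by 0.82 (SE 0.15, adjusted p = 0.00299) and Bcl2a1d fell by 0.70 (SE 0.10, adjusted p = 0.00115) on the log2 scale, or 1.76-fold and 1.62-fold lower. Both calls held in each of the 16 other fits of this comparison, with log2 fold changes from -1.03 to -0.58 for Bcl2a1b and from -0.80 to -0.56 for Bcl2a1d.

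The A1 copies are close in sequence, which bears on how their reads were counted. The stretches below are upstream of their RefSeq start sites (GRCm38.p6), read along the gene, and are shown because both copies that were followed, and Bcl2a1a beside them, carry the same pair of motifs there. Capitals mark the AP-1 motif TGANTCA and the motif GAGGAAGT, of the type bound by the ETS factor PU.1.
Bcl2a1b, chr9:89199093-89199182, plus strand: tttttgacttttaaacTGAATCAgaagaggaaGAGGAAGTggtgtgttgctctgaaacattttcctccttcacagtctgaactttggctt
Bcl2a1d, chr9:88731897-88731980, minus strand: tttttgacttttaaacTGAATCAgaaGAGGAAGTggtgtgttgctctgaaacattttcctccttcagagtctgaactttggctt
The Bcl2a1a stretch of 90 bases was identical to that of Bcl2a1b. The Bcl2a1d stretch matched the other copies at 83 of 84 aligned bases and lacked 6 bases between the motifs. In GENCODE M21, 18 bases of the Bcl2a1d stretch lie in an annotated exon. Over the annotated transcripts (GENCODE M21) Bcl2a1b and Bcl2a1d were 99.1% identical, and 57.6% of the stretches of 50 bases in Bcl2a1b and 79.5% of those in Bcl2a1d also occurred in another copy. How reads that map to several places were counted is not stated in the labels or files, so the values of single copies are uncertain. Bcl2a1b exons also share 401 bases with Gm29094 on the same strand.

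Moving reads between the copies would not change their sum. Summed over Bcl2a1a, Bcl2a1b and Bcl2a1d, A1 transcripts came to 201 and 184 CPM in CpG CD103 high libraries, 320 and 315 CPM in CD103 low libraries, and 357, 277 and 239 CPM in CD103 negative libraries. Counted as 1 gene, they fell by 0.72 on the log2 scale in CpG CD103 high relative to CD103 negative cells (adjusted p = 0.00196). Bcl2a1b made up 33.7% and 32.0% of the sum in CpG CD103 high libraries, 37.6% and 38.4% in CD103 low libraries, and 36.1%, 34.1% and 37.0% in CD103 negative libraries. Its share in CpG CD103 high libraries was thus at the low end, with no test of shares made. The fourth copy, Bcl2a1c, had no count in any library.

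**Figure D2:**
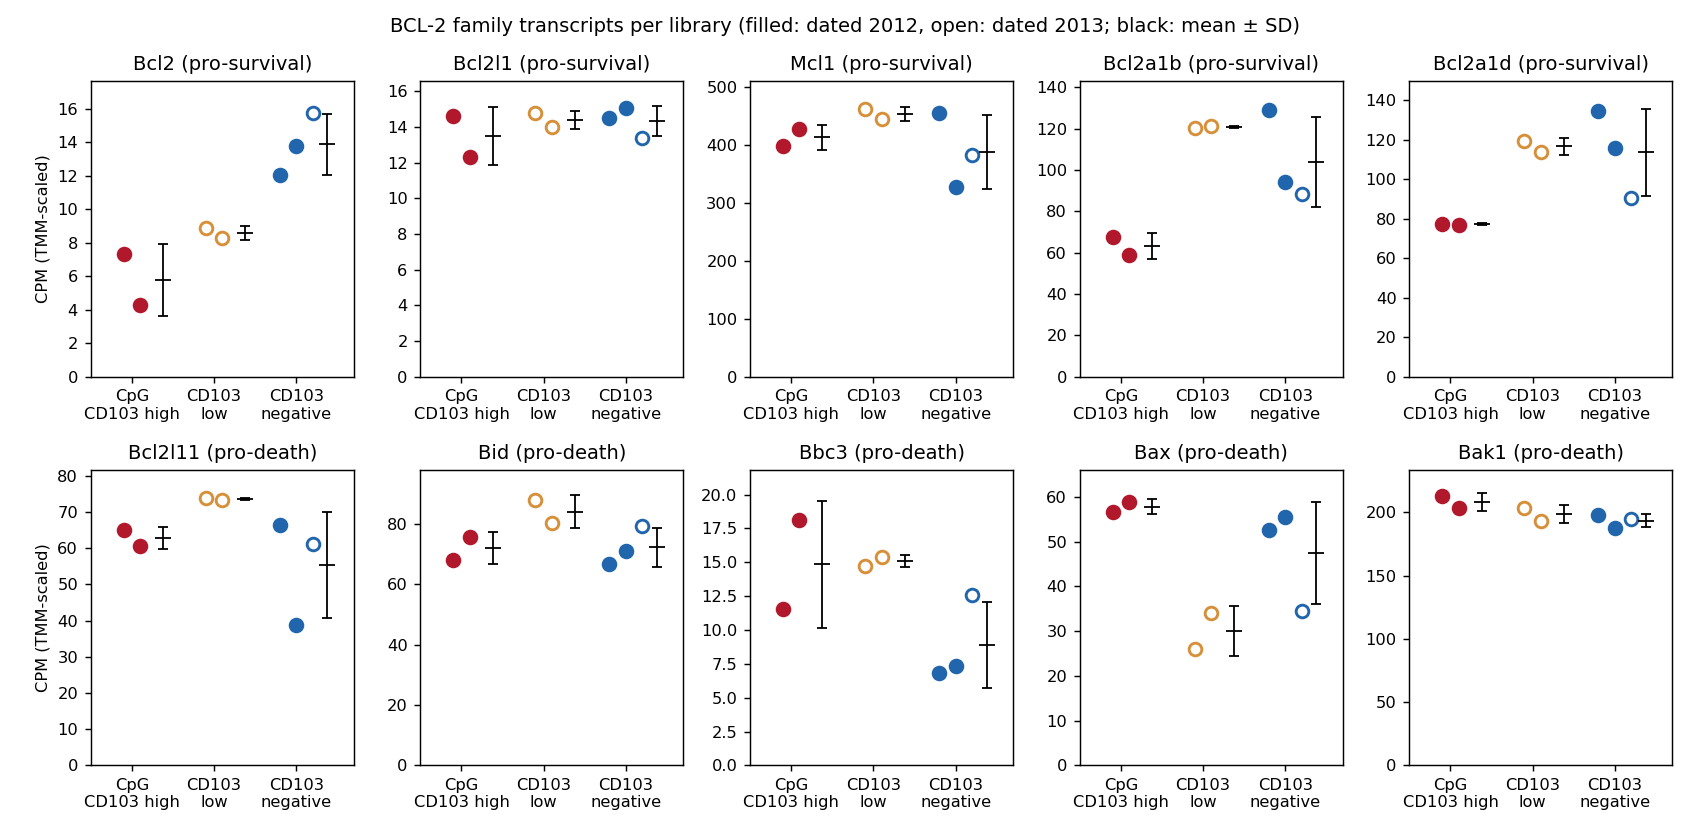
CPM of the 5 pro-survival genes (upper row) and the 5 pro-death genes (lower row) in each library, with CpG CD103 high, CD103 low and CD103 negative from left to right, filled circles for libraries dated 2012, open circles for 2013, and black marks for mean ± SD. The CpG CD103 high libraries lie lowest for Bcl2, Bcl2a1b and Bcl2a1d, and the 3 libraries dated 2013 lie lowest for Bax.

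Mcl1 (Entrez 17210; chr3:95656944-95663179, GRCm38), which sequesters BIM and BAK among others, had 398 and 428 CPM in CpG CD103 high libraries, 462 and 444 CPM in CD103 low libraries, and 455, 327 and 382 CPM in CD103 negative libraries. The CD103 negative libraries alone spanned the values of CpG CD103 high ones. Its log2 fold change in CpG CD103 high relative to CD103 negative cells was 0.08 (SE 0.13, adjusted p = 0.704). Bcl2l1 (Entrez 12048; chr2:152758732-152833803, GRCm38), which encodes BCL-XL, had 14.6 and 12.3 CPM in CpG CD103 high libraries, 14.8 and 14.0 CPM in CD103 low libraries, and 14.5, 15.1 and 13.4 CPM in CD103 negative libraries. The populations overlapped, and its log2 fold change in the same comparison was -0.13 (SE 0.18, adjusted p = 0.629).

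Among the BH3-only genes, Bbc3 (Entrez 170770; chr7:16308398-16318334, GRCm38), which encodes the p53 target PUMA, had 11.5 and 18.2 CPM in CpG CD103 high libraries, 14.8 and 15.4 CPM in CD103 low libraries, and 6.81, 7.33 and 12.6 CPM in CD103 negative libraries. CD103 negative replicate 3, dated 2013, lay inside the CpG CD103 high range, while the 2 CD103 negative libraries of 2012 lay below it. Bbc3 rose by 1.07 on the log2 scale in CpG CD103 high relative to CD103 negative cells (SE 0.26, adjusted p = 0.0133), which is 2.09-fold. The counts behind it were 52 and 81 in CpG CD103 high libraries, 65 and 67 in CD103 low libraries, and 31, 34 and 59 in CD103 negative libraries. The call was lost without the date term (log2 fold change 0.73, adjusted p = 0.129), in DESeq2 (1.06, adjusted p = 0.0734), and without CpG CD103 high replicate 2 (0.70, adjusted p = 0.0995), CD103 negative replicate 1 (1.01, adjusted p = 0.0720) or CD103 negative replicate 2 (1.12, adjusted p = 0.0545).

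**Figure D3:**
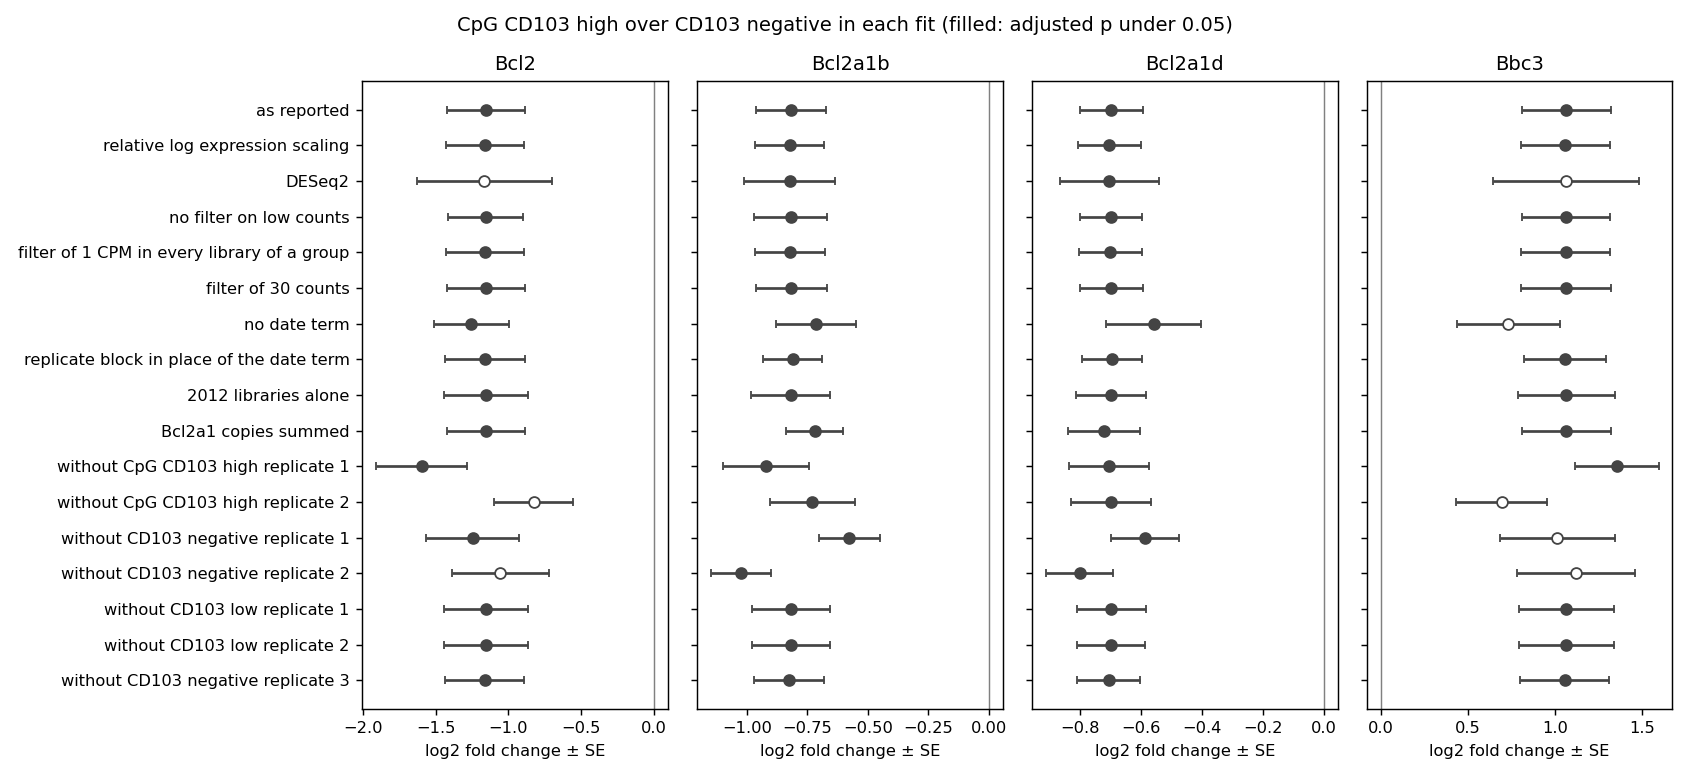
Log2 fold change ± SE of the 4 called genes in CpG CD103 high over CD103 negative cells under the reported fit and 16 others, with filled circles where the adjusted p was under 0.05. Bcl2a1b and Bcl2a1d stay filled in every fit (where the A1 copies were summed, both panels show the sum), Bcl2 is open in 3 fits and Bbc3 in 5.

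Bcl2l11 (Entrez 12125; chr2:128126038-128162547, GRCm38), which encodes BIM, had 65.0 and 60.7 CPM in CpG CD103 high libraries, 73.8 and 73.3 CPM in CD103 low libraries, and 66.3, 38.8 and 61.3 CPM in CD103 negative libraries. CD103 negative replicate 2 stood apart at the low end, and the CD103 low libraries lay above all others. The log2 fold change in CpG CD103 high relative to CD103 negative cells was 0.26 (SE 0.20, adjusted p = 0.368). It reached 0.70 (adjusted p = 0.0145) without CD103 negative replicate 1 and turned to -0.08 (adjusted p = 0.731) without CD103 negative replicate 2. Bid (Entrez 12122; chr6:120893119-120917062, GRCm38), the BH3-only gene whose protein is cut by caspase-8, had 68.1 and 75.8 CPM in CpG CD103 high libraries, 87.9 and 80.2 CPM in CD103 low libraries, and 66.5, 70.9 and 79.2 CPM in CD103 negative libraries. Its log2 fold change was 0.07 (SE 0.11, adjusted p = 0.697). Bid exons share 628 bases with its neighbour Bcl2l13 on the opposite strand.

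Bbc3 and Bcl2l11 are known targets of FOXO factors, and Foxo1 was among the regulators that fell in CpG CD103 high relative to CD103 negative cells. In that comparison Bbc3 rose (log2 fold change 1.07) and Bcl2l11 was not called (0.26). A link of either gene to Foxo1 was not tested. Of the 10 genes, Bbc3 and Bcl2l11 were the 2 with the FOXO motif GTAAACA, on either strand, in a RefSeq window from 250 bases before to 50 bases after a start site. The stretches around the match (GRCm38.p6) are given with the motif in capitals.
Bbc3, chr7:16310068-16310126, plus strand: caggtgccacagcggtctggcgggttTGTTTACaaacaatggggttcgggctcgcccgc
Bcl2l11, chr2:128125788-128125843, plus strand: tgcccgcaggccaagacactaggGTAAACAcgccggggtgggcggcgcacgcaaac
The match lay 167 bases upstream of a RefSeq start site of Bbc3 and 227 bases upstream of that of Bcl2l11. That Bbc3 start site and the stretch shown lie inside the gene (chr7:16308398-16318334), downstream of its first base. The FOXO motif occurred in 3.65% of 32851 such windows genome-wide, GAGGAAGT in 3.20%, TGANTCA in 7.81% and the NF-kB motif GGNNTTTCC in 5.82%. GAGGAAGT was present at Bcl2a1b, Bcl2a1d and Bak1, TGANTCA at Bcl2a1b and Bcl2a1d, and GGNNTTTCC at Bbc3, Bcl2l1 and Mcl1. The 10 genes had 15 windows in all, both strands were searched, and a match is a description of the letters and no evidence of binding.

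The effectors did not pass the test in this comparison. Bax (Entrez 12028; chr7:45461695-45466903, GRCm38) had 56.6 and 58.9 CPM in CpG CD103 high libraries, 26.1 and 34.0 CPM in CD103 low libraries, and 52.7, 55.4 and 34.5 CPM in CD103 negative libraries. Its log2 fold change in CpG CD103 high relative to CD103 negative cells was 0.10 (SE 0.13, adjusted p = 0.636). Bak1 (Entrez 12018; chr17:27019812-27028627, GRCm38) had 213 and 203 CPM in CpG CD103 high libraries, 203 and 193 CPM in CD103 low libraries, and 198, 188 and 195 CPM in CD103 negative libraries. Bak1 thus spanned a narrow range over all 7 libraries, with a log2 fold change of 0.11 (SE 0.08, adjusted p = 0.361). Bax exons share 192 bases with Gm45808 on the same strand, and Bak1 exons share 614 bases with Ggnbp1 on the opposite strand.

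Bax levels were split by the date on the labels. All 4 libraries dated 2012 lay between 52.7 and 58.9 CPM, and all 3 dated 2013 lay between 26.1 and 34.5 CPM. Only the CD103 negative population has libraries of both dates. For the CD103 low libraries, all dated 2013, date and population are told apart by CD103 negative replicate 3 alone. Within the CD103 negative population, the replicate of 2013 was lower than those of 2012 by 0.65 on the log2 scale (SE 0.17), which did not pass the adjustment (adjusted p = 0.0743), where 3.46% of all genes were called for the date. In a fit without the date term Bax was called higher in CpG CD103 high than in CD103 low cells (log2 fold change 0.94, adjusted p = 0.0381), while the fit with it gave 0.29 (SE 0.22, adjusted p = 0.469). Bid was the other of the 10 whose dates did not overlap, from 66.5 to 75.8 CPM in 2012 libraries and from 79.2 to 87.9 CPM in 2013 libraries. The date term of Bbc3 was 0.83 (SE 0.31, adjusted p = 0.174) and that of Bcl2a1d was -0.47 (SE 0.13, adjusted p = 0.0759). No member was called for the date by edgeR, and 3 of 10 had an unadjusted p under 0.05, beside 20.4% of all genes.

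No member passed the test between CD103 low and CD103 negative cells, where 0.138% of all genes were called, with 0.0552% of all genes higher and 0.0829% lower. At an unadjusted p under 0.05 there were 3 of 10 members, beside 7.34% of all genes, and DESeq2 called none of the 10. The 3 were Bcl2, which was lower, and Bcl2a1b and Bcl2a1d, which were higher. As near-identical copies, Bcl2a1b and Bcl2a1d are not independent, so the count of 3 holds the A1 signal more than once. Bcl2 had a log2 fold change of -0.88 (SE 0.29, adjusted p = 0.475), Bcl2a1b of 0.45 (SE 0.18, adjusted p = 0.583) and Bcl2a1d of 0.36 (SE 0.13, adjusted p = 0.514). Both CD103 low libraries were below all CD103 negative libraries in Bcl2, at 8.57 ± 0.410 CPM (SD, n = 2) against 13.9 ± 1.84 CPM (SD, n = 3). The A1 genes of CD103 low libraries were higher than in CD103 negative replicate 3, the library of the same date, and within or below the range of the other CD103 negative libraries. In the 2013 libraries alone, with a single CD103 negative library, Bcl2a1b was called higher (log2 fold change 0.44, adjusted p = 0.0221) and Bcl2 was not (-0.89, adjusted p = 0.0667). Mcl1, Bcl2l1, Bcl2l11, Bid, Bbc3, Bax and Bak1 had log2 fold changes from -0.20 to 0.26 in this comparison and adjusted p-values of 0.813 or more. Without CD103 negative replicate 3, where date and population cannot be told apart, Bbc3 (1.06, adjusted p = 0.0318) and Bax (-0.88, adjusted p = 0.00726) were called.

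CpG CD103 high cells differed from CD103 low cells in the A1 genes. Bcl2a1b fell by 1.27 (SE 0.23, adjusted p = 0.0144) and Bcl2a1d by 1.06 (SE 0.16, adjusted p = 0.00775) on the log2 scale, which is 2.41-fold and 2.09-fold lower. These near-identical copies, whose calls are not independent, were the 2 called of 10. Of all genes 6.22% were called, with 3.44% of all genes higher and 2.78% lower. This comparison is also the test of whether the 2 CD103-expressing populations differed from CD103 negative cells by unequal amounts, since it is the difference of those contrasts. The libraries themselves averaged 63.3 ± 6.17 CPM for Bcl2a1b in CpG CD103 high and 121 ± 0.571 CPM in CD103 low cells (SD, n = 2 each). The size of the fold depends on the date term, for without it Bcl2a1b fell by 0.93 (adjusted p = 0.0151), and Bcl2a1d had a log2 fold change of -0.60 with an adjusted p of 0.0672. Without CD103 low replicate 1 neither copy was called (Bcl2a1b -1.27, adjusted p = 0.0800; Bcl2a1d -1.02, adjusted p = 0.0593), and without CD103 low replicate 2 the call of Bcl2a1b was lost (adjusted p = 0.0759). Bcl2 was not called (log2 fold change -0.28, SE 0.40, adjusted p = 0.715), nor was Bbc3 (0.80, SE 0.39, adjusted p = 0.242). For Bbc3 the libraries of CpG CD103 high and CD103 low overlapped, with means of 14.8 ± 4.68 and 15.1 ± 0.455 CPM (SD, n = 2 each), and without the date term the log2 fold change was -0.02.

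**Figure D4:**
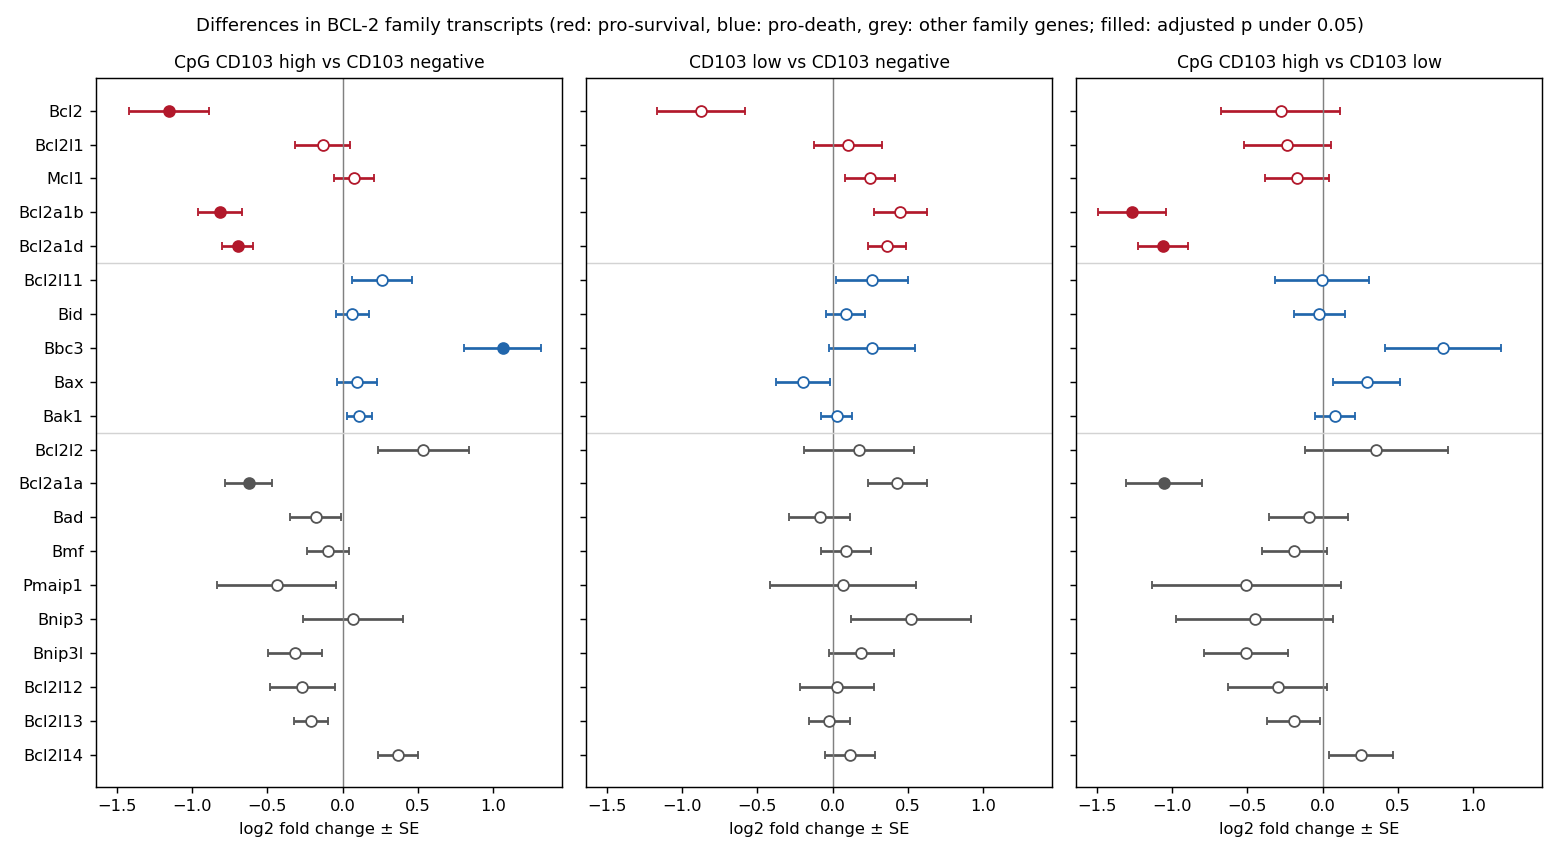
Log2 fold change ± SE of the 20 BCL-2 family genes that could be tested, for CpG CD103 high over CD103 negative, CD103 low over CD103 negative and CpG CD103 high over CD103 low, with filled circles at an adjusted p under 0.05. The filled genes are Bcl2, Bcl2a1b, Bcl2a1d, Bbc3 and Bcl2a1a in the first panel, none in the second, and the A1 genes in the third.

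Added over the pro-survival genes, the level was 565 and 580 CPM in CpG CD103 high libraries, 725 and 702 CPM in CD103 low libraries, and 745, 567 and 590 CPM in CD103 negative libraries. The sum is carried by Mcl1, and CpG CD103 high overlapped CD103 negative libraries in it. Without Mcl1 it was 167 and 152 CPM in CpG CD103 high libraries, 264 and 257 CPM in CD103 low libraries, and 290, 239 and 208 CPM in CD103 negative libraries, with CpG CD103 high below all others. The pro-death genes summed to 414 and 417 CPM in CpG CD103 high libraries, 406 and 396 CPM in CD103 low libraries, and 390, 360 and 382 CPM in CD103 negative libraries. The ratio of the pro-survival to the pro-death sum was 1.36 and 1.39 in CpG CD103 high libraries, 1.79 and 1.77 in CD103 low libraries, and 1.91, 1.57 and 1.54 in CD103 negative libraries. For the listed genes this ratio was lowest in the CpG CD103 high libraries. Other family genes are left out on both sides. Among them are Bcl2a1a, at 48.4 to 94.0 CPM over the libraries, and the MCL-1 antagonist Pmaip1, at 178 to 540 CPM. The order of the ratios is thus a statement about the listed genes alone. These sums and ratios are descriptions of transcripts chosen with the results known, and no test was made on them.

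Another 16 genes of the family were looked up, of which 10 passed the filter on low counts. Bcl2l10, Bcl2a1c and Hrk had no count in any library, and Bok, Bik and Bcl2l15 were too low to test. Bcl2a1a was the 1 called of the 10, and it moved as the other A1 copies did. It had 55.5 and 48.4 CPM in CpG CD103 high libraries, 80.4 and 80.2 CPM in CD103 low libraries, and 94.0, 66.4 and 59.6 CPM in CD103 negative libraries. It fell by 0.63 relative to CD103 negative cells (SE 0.16, adjusted p = 0.0172) and by 1.06 relative to CD103 low cells (SE 0.25, adjusted p = 0.0381). Both calls of Bcl2a1a were lost in the fit with no date term and in those that left out CpG CD103 high replicate 2 or CD103 negative replicate 1. The call relative to CD103 low cells was lost in 6 of 15 other fits, also with no filter on low counts and without either CD103 low library. Pmaip1, which encodes the MCL-1 antagonist NOXA, varied widely between replicates, with 325 and 205 CPM in CpG CD103 high libraries, 233 and 290 CPM in CD103 low libraries, and 540, 178 and 250 CPM in CD103 negative libraries. Its log2 fold change in CpG CD103 high relative to CD103 negative cells was -0.44 (SE 0.39, adjusted p = 0.442), and it was -1.03 without CD103 negative replicate 2 (adjusted p = 0.0178) and 0.57 without CD103 negative replicate 1 (adjusted p = 0.147). Mcl1, Bcl2l11 and Pmaip1 all had their lowest value in CD103 negative replicate 2.

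The remaining family genes did not pass the reported test in any of the 3 comparisons. Bcl2l14 had 136 and 107 CPM in CpG CD103 high libraries, 89.5 and 89.4 CPM in CD103 low libraries, and 103, 85.2 and 82.6 CPM in CD103 negative libraries, so CpG CD103 high lay above all others, with a log2 fold change of 0.37 over CD103 negative cells (SE 0.13, adjusted p = 0.0659). It was called when CpG CD103 high replicate 2 was left out (0.53, adjusted p = 0.0237) and with a replicate block in place of the date term (0.37, adjusted p = 0.0314), and its log2 fold change was 0.18 when CpG CD103 high replicate 1 was left out (adjusted p = 0.361). Bcl2l2, which encodes the pro-survival protein BCL-W, had a log2 fold change of 0.54 in that comparison (SE 0.30, adjusted p = 0.217), with values from 0.20 to 0.98 over the other fits, the highest when CD103 negative replicate 2 was left out. The BH3-only genes Bmf and Bad had log2 fold changes of -0.10 (SE 0.14, adjusted p = 0.639) and -0.18 (SE 0.17, adjusted p = 0.464). Bnip3, Bnip3l, Bcl2l12 and Bcl2l13 lay between -0.32 and 0.07, with adjusted p-values of 0.191 or more.

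Downstream of the mitochondrion, 2 of 12 tested apoptosome and caspase genes were called in CpG CD103 high relative to CD103 negative cells, where 26.3% of all genes were. Apaf1, which encodes the scaffold that assembles with cytochrome c, had 104 and 114 CPM in CpG CD103 high libraries, 134 and 129 CPM in CD103 low libraries, and 143, 146 and 139 CPM in CD103 negative libraries. It fell by 0.40 (SE 0.09, adjusted p = 0.00997). Casp6, an executioner caspase, had 191 and 156 CPM in CpG CD103 high libraries, 129 and 145 CPM in CD103 low libraries, and 119, 127 and 140 CPM in CD103 negative libraries, and rose by 0.50 (SE 0.11, adjusted p = 0.0115). For both genes the CpG CD103 high libraries lay outside the range of the other libraries. The call of Casp6 was lost when CpG CD103 high replicate 1 (adjusted p = 0.0615) or CD103 negative replicate 1 (adjusted p = 0.0701) was left out. Of 7 inhibitors of apoptosis 1 was called: Birc6, a ubiquitin ligase that restrains caspases, rose by 0.46 (SE 0.15, adjusted p = 0.0449). Birc6 had 190 and 266 CPM in CpG CD103 high libraries, 267 and 251 CPM in CD103 low libraries, and 150, 181 and 302 CPM in CD103 negative libraries, so CD103 negative replicate 3 lay above both CpG CD103 high libraries, and its date term was itself called. Its log2 fold change was 0.11 in the fit with no date term (adjusted p = 0.814), 0.19 when CpG CD103 high replicate 2 was left out (adjusted p = 0.331) and 0.69 when CpG CD103 high replicate 1 was (adjusted p = 0.00416). The call was lost in 8 of 16 other fits, also when CD103 negative replicate 1 (adjusted p = 0.239) or 2 (adjusted p = 0.0547), or either CD103 low library (adjusted p = 0.0834), was left out. Of 11 genes around death receptors 2 were called, with the necroptosis kinase Ripk3 falling by 0.67 (SE 0.15, adjusted p = 0.0112) and the adaptor Fadd falling by 0.47 (SE 0.15, adjusted p = 0.0428). Ripk3 had 23.3 and 31.4 CPM in CpG CD103 high libraries, 28.6 and 29.9 CPM in CD103 low libraries, and 43.7, 43.1 and 27.9 CPM in CD103 negative libraries, with CD103 negative replicate 3 inside the CpG CD103 high range. The call of Fadd was lost in 10 of 16 other fits, among them all that left out 1 library except CD103 negative replicate 3 (adjusted p from 0.0623 to 0.176), and that of Ripk3 in 4, among them those that left out CpG CD103 high replicate 1 (adjusted p = 0.0629) or CD103 negative replicate 1 (adjusted p = 0.0529).

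Regulators of the family, 18 genes in all, gave 2 that rose and 3 that fell in CpG CD103 high relative to CD103 negative cells, with a list median of -0.15 and 26.3% of all genes called either way. Foxo1, a transcription factor that acts on BH3-only genes, had 49.3 and 40.3 CPM in CpG CD103 high libraries, 146 and 123 CPM in CD103 low libraries, and 144, 106 and 132 CPM in CD103 negative libraries. It fell by 1.48 (SE 0.17, adjusted p = 0.000288), while its relative Foxo3 had a log2 fold change of -0.01 (SE 0.14, adjusted p = 0.961). Trp53, which encodes the p53 activator of Bbc3 and Bax, fell by 0.31 (SE 0.08, adjusted p = 0.0235), and Mdm2, the ligase that removes p53, rose by 0.31 (SE 0.10, adjusted p = 0.0382). Dynll1, a dynein light chain that binds BIM, fell by 0.65 (SE 0.10, adjusted p = 0.00134). Fbxw7, part of a ubiquitin ligase for MCL-1, rose by 0.69 (SE 0.16, adjusted p = 0.0116). The call of Foxo1 and that of Dynll1 held in all 16 other fits. Those of Mdm2, Trp53 and Fbxw7 were lost in 10, 5 and 4 of them, each when CpG CD103 high replicate 1 was left out (adjusted p = 0.108, 0.0609 and 0.0706) and when CD103 negative replicate 2 was (adjusted p = 0.163, 0.0668 and 0.0745). Those of Mdm2 and Trp53 were also lost when CpG CD103 high replicate 2 (adjusted p = 0.0892 and 0.0620) or CD103 negative replicate 1 (adjusted p = 0.0710 and 0.0857) was left out, and that of Mdm2 when CD103 low replicate 1 (adjusted p = 0.0711) or 2 (adjusted p = 0.0695) was. The directions of these 5 genes are thus mixed in what their products do to the family.

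Receptors for dendritic cell survival factors gave 4 that rose and none that fell among 8 tested in CpG CD103 high relative to CD103 negative cells, where 14.5% of all genes were called higher. Csf2ra, the ligand-binding chain of the GM-CSF receptor, had 483 and 596 CPM in CpG CD103 high libraries, 464 and 513 CPM in CD103 low libraries, and 269, 262 and 410 CPM in CD103 negative libraries. It rose by 1.02 in CpG CD103 high relative to CD103 negative cells (SE 0.11, adjusted p = 0.000228), and its date term was itself called, and the 2013 library of CD103 negative cells lay nearest the other populations. The signalling chain Csf2rb rose by 0.45 (SE 0.10, adjusted p = 0.00710), its paralog Csf2rb2 by 0.45 (SE 0.08, adjusted p = 0.00381), and Il3ra, the IL-3 receptor chain, by 0.60 (SE 0.16, adjusted p = 0.0180). Csf2rb and Csf2rb2 are close paralogs, and their split of reads is uncertain. Csf2rb lost its call in the fit with no date term (adjusted p = 0.0900) and when CD103 negative replicate 2 was left out (adjusted p = 0.0560), and Csf2rb2 lost it in the fit with no date term (adjusted p = 0.123). The call of Il3ra was lost in DESeq2 (adjusted p = 0.198) and when CpG CD103 high replicate 2 (adjusted p = 0.101) or CD103 negative replicate 1 (adjusted p = 0.104) was left out. Flt3, the receptor on which these cells depend for development, had a log2 fold change of 0.21 (SE 0.08, adjusted p = 0.0636).

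No gene of these 5 pathway lists was called between CD103 low and CD103 negative cells. The most abundant gene of each list, Casp6, Birc6, Cyld, Tmbim6 and Flt3, had a log2 fold change from -0.22 to 0.24 there, with adjusted p-values of 0.603 or more. In CpG CD103 high relative to CD103 low cells, Foxo1 fell by 1.51 (SE 0.25, adjusted p = 0.0111), while Csf2ra rose by 0.77 (SE 0.17, adjusted p = 0.0291) and Csf2rb2 by 0.51 (SE 0.13, adjusted p = 0.0483). Both folds depended on the date term and on CD103 negative replicate 3: with no date term they were 0.14 for Csf2ra (adjusted p = 0.741) and 0.14 for Csf2rb2 (adjusted p = 0.590), with a replicate block in place of the date term 0.14 (adjusted p = 0.376) and 0.14 (adjusted p = 0.301), and without CD103 negative replicate 3 0.16 (adjusted p = 0.349) and 0.16 (adjusted p = 0.217). The libraries of CpG CD103 high and CD103 low overlapped in Csf2ra. No gene of the apoptosome, inhibitor or death receptor lists was called there. Their most abundant genes, Casp6, Birc6 and Cyld (a deubiquitinase of the death receptor complex), had log2 fold changes of 0.53 (SE 0.18, adjusted p = 0.112), 0.69 (SE 0.23, adjusted p = 0.108) and 0.21 (SE 0.14, adjusted p = 0.393). In all, the calls of Csf2ra and Csf2rb2 were lost in 8 and 11 of 15 other fits, and that of Foxo1 in 1, when CD103 low replicate 1 was left out (adjusted p = 0.0735).

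Genes whose levels followed the called members most closely over the 7 libraries were sought among those whose average log2 CPM was 4 or more. For Bcl2 they were Runx2 (Pearson r = 0.988), Smim15 (0.972) and Spn (0.960). For Bcl2a1b they were Tspan13 (0.989), Ubl7 (0.989) and Kxd1 (0.984). For Bcl2a1d they were Mgat2 (0.992), Ccni (0.981) and a gene with no symbol in the tables used here. For Bbc3 they were Stat6 (0.994), Sbf1 (0.990) and Dop1b (0.987). The A1 copies correlated with each other at r from 0.944 to 0.972. These coefficients were picked as the highest of 7207 or 7208 genes and share groups and dates over few libraries, so they describe these libraries only.

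Marker genes of cell types and states moved with the comparison of CpG CD103 high and CD103 negative cells, where 14.5% of all genes were called higher and 11.8% lower. Of 11 markers of type 1 conventional dendritic cells 8 rose and none fell, Xcr1, Clec9a, Irf8 and Tlr3 among them, with Itgae, the sorted marker, in that count. Of 8 markers of mature dendritic cells 6 fell in CpG CD103 high relative to CD103 negative cells, Ccr7 and Fscn1 among them, and their summed level was between 620 and 735 CPM in CpG CD103 high libraries, between 1130 and 1186 CPM in CD103 low libraries, and between 1130 and 1685 CPM in CD103 negative libraries. Of 4 tested B cell markers 3 fell, namely Cd79b, Ms4a1 and Cd22. Ms4a1 had 8.21 and 9.64 CPM in CpG CD103 high libraries, against 48.6 and 47.6 CPM in CD103 low libraries and 69.8, 47.4 and 48.1 CPM in CD103 negative libraries. Markers of type 2 dendritic cells summed to 15.5 to 19.1 CPM in CpG CD103 high libraries, 46.2 to 55.9 CPM in CD103 low libraries and 30.8 to 77.3 CPM in CD103 negative libraries, and 4 of 5 tested fell. Red cell and platelet markers summed to 27.7 to 32.9 CPM in CpG CD103 high libraries, 7.82 to 17.5 CPM in CD103 low libraries and 2.80 to 3.62 CPM in CD103 negative libraries, and all 5 tested rose. Macrophage markers summed to 223 to 237 CPM in CpG CD103 high libraries, 370 to 412 CPM in CD103 low libraries and 319 to 369 CPM in CD103 negative libraries, and of 5 tested Cd68 and Vcam1 fell. Monocyte and neutrophil markers summed to 65.0 to 90.7 CPM in CpG CD103 high libraries, 30.1 to 36.1 CPM in CD103 low libraries and 68.7 to 120 CPM in CD103 negative libraries, and of 3 tested Ly6c2 and S100a9 rose and Ccr2 fell. Markers of plasmacytoid dendritic cells summed to 203 to 227 CPM in CpG CD103 high libraries, 162 to 176 CPM in CD103 low libraries and 184 to 249 CPM in CD103 negative libraries, and of 6 tested Pacsin1 rose while Tcf4 and Spib fell. Natural killer cell markers summed to 5.10 CPM or less in every library. The part of these markers in the values of Bcl2, the A1 genes and Bbc3 was not tested.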

How the data were processed

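The deposited files give whole-number read counts per gene under Entrez identifiers, 1 file for each sample, not normalized, as their headers and values show. The submitters' processing notes name CASAVA, Subread 1.4.6, featureCounts and the build mm10, without saying which did what. The labels and files do not state the annotation release, the strand setting or how reads that map to several places were treated. Each deposited file also lists a gene length, used for levels per 1000 bases. A further table was left out, since its 7 columns bear names found on no sample.

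Symbols came from the RefSeq gene table (GRCm38.p6) for 25275 of 27179 genes (93.0%), and the others, with 0.533% of counts, stayed in the tests. The analysis used edgeR 4.0.16 under R 4.3.3: filterByExpr by group (10863 genes), trimmed mean of M-values scaling, and a quasi-likelihood fit (glmQLFit, glmQLFTest) with group and date over all 7 libraries on 3 residual degrees of freedom. SE is the size of the log2 fold change divided by the square root of F. P-values were adjusted by the Benjamini-Hochberg method over all genes tested and called under 0.05. Per the design text, replicates are biological; the tests measure the spread between these libraries. At this depth 3 counts, the limit that a count of 0 allows, are 0.648 to 0.671 CPM, which covers counting error only. DESeq2 1.42.0, other scalings, filters and designs, summed A1 copies and fits without each library were run as alternatives, and the fit was tested on simulated data.

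The members and gene lists were chosen with earlier results of these data known. The text names all members, all other family genes, and up to 3 called genes of each pathway list and comparison by adjusted p, or its most abundant gene where none was called; Trp53, Mdm2, Foxo3, Il3ra, Flt3, Ms4a1 and the other markers were named outside it, after their values were seen. Promoter sequences are from RefSeq (GRCm38.p6), in which all 10 members matched, and transcripts and exon overlaps from GENCODE M21 on GRCm38.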

Additional observations from a re-analysis of the deposited data

How the results depend on the processing

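Between CpG CD103 high and CD103 negative cells the 4 members called became 2 in DESeq2, the A1 genes, and 2 to 4 when 1 library was left out; the 2860 genes called overall became 1459 in DESeq2, 1589 without the date term, and 1696 to 2860 with 1 library left out. Between CD103 low and CD103 negative cells the 0 members called became 2 with a replicate block in place of the date term (Bbc3 and Bax), 1 in the 2013 libraries alone (Bcl2a1b), and 0 to 2 with 1 library left out; the 15 genes called became 33 in DESeq2, 1 with no filter, 7 with a filter of 30 counts (chosen after seeing the data), 1175 with the replicate block, 290 in the 2013 libraries alone, and 1 to 1030 with 1 library left out, the highest without CD103 negative replicate 3. Between CpG CD103 high and CD103 low cells the 2 members called became 1 with the A1 copies summed, since the sum is 1 gene, and 0 to 3 with 1 library left out; the 676 genes called became 390 in DESeq2, 263 with no filter, 1775 with the replicate block, and 111 to 1667 with 1 library left out. The cause of these shifts was not tested.

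Some log2 fold changes turned sign. Over CD103 negative cells, CpG CD103 high gave -0.00587 for Bid without the date term; CD103 low gave -0.0407 for Bcl2l1 and -0.10 for Bcl2a1d with the replicate block. Over CD103 low cells, Bbc3 in CpG CD103 high gave -0.0232 without the date term and -0.0351 with the replicate block. With 1 library left out, CpG CD103 high over CD103 negative ranged from -0.0213 to 0.140 for Bid, -0.213 to 0.305 for Bnip3, -0.236 to 0.0552 for Bmf, -1.03 to 0.57 for Pmaip1, -0.0624 to 0.0292 for Foxo3, -0.141 to 0.335 for Mcl1 and -0.0768 to 0.696 for Bcl2l11. CD103 low over CD103 negative ranged from -0.00895 to 0.0646 for Bak1, -0.0686 to 0.138 for Bcl2l1, -0.131 to 0.400 for Bcl2a1d and -0.0260 to 0.431 for Bcl2a1a. CpG CD103 high over CD103 low ranged from -0.204 to 0.0539 for Bid, -0.721 to 0.0531 for Bcl2, -0.340 to 0.433 for Bcl2l11, -0.388 to 0.0874 for Mcl1 and -0.00247 to 1.09 for Bbc3.

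Same-numbered libraries deviated together weakly between CpG CD103 high and CD103 negative (r = 0.168 over 10863 genes). The value was near 0 between CD103 low and CD103 negative (r = 0.00245) and between CpG CD103 high and CD103 low (r = -0.00641). These values do not settle whether the numbers mark pairs, and the reported fit did not take them as pairs. In the fit with a replicate block, the level for number 3 takes up CD103 negative replicate 3. With that block Bax was also called between CpG CD103 high and CD103 low cells, making 3 members. Where a fit left 1 library in a population, that library was assumed to vary like the others. Bcl2 at 19 to 74 counts and Bbc3 at 31 to 81 counts are the called members with the fewest counts.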
